A study of Mus musculus with 6 samples.

Results

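The 10 genes described here mark neurons of the deep layers of the cerebral cortex: Tbr1, Bcl11b, Fezf2, Sox5, Foxp2, Tle4, Crym, Zfpm2, Nr4a2 and Tshz3. They were taken by symbol from a fixed set of names, and all 10 were found among the 24041 genes of the table. The 6 RNA-seq libraries came from cells of the mouse cerebral cortex that took up plasmids during electroporation, a transfer of DNA by short electric fields, and that were collected by their GFP fluorescence. In 3 libraries the cells carried mutant PRPF6 beside GFP, and in 3 they carried wild-type PRPF6 beside GFP. PRPF6 belongs to the tri-snRNP, a building block of the spliceosome. The mutation, the species of the PRPF6 plasmids, the promoter driving them, the age and strain of the mice and whether libraries came from separate animals are not given in the labels. The p-values below therefore set the group difference against the variation among the libraries as they are, part of which may be technical. If the libraries did not come from separate animals, these p-values do not speak to a difference between animals. No library without a PRPF6 plasmid was part of the comparison.

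The libraries held 45115122 to 57475218 expected counts with mutant PRPF6 and 47564897 to 60600617 with wild-type PRPF6. Levels are given as CPM, the usual counts scaled for depth. Prpf6 itself averaged 134 ± 10.01 CPM with mutant and 141 ± 22.6 CPM with wild-type PRPF6 (SD, n = 3 each). Its log2 difference was −0.073 ± 0.17 (SE), and the counts do not separate plasmid from endogenous transcripts. Neurod6, a transcription factor of cortical excitatory neurons, was present in every library, and it served as a check of the labelled tissue. It was at 57.5, 693 and 608 CPM in mutant replicates 1, 2 and 3 and at 583 to 1276 CPM with wild-type PRPF6. Mutant replicate 1 thus stood far below every other library. Presence alone does not show that the libraries held like shares of these neurons.

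Deep-layer neurons are excitatory neurons born before those of the upper layers of the cortex, and they send axons to the thalamus, brainstem and spinal cord. Their identity is set by transcription factors that act on one another. Fezf2 and Bcl11b promote the fate of neurons that project to the brainstem and spinal cord, while Tbr1, Sox5, Tle4 and Zfpm2 belong to the programme of corticothalamic neurons, in which Tbr1 and Sox5 hold down Fezf2 and Bcl11b. Foxp2 marks corticothalamic neurons, Crym marks subcerebral neurons, and Nr4a2 marks the subplate and its deep-layer relatives.

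With mutant PRPF6, Bcl11b, Tbr1 and Sox5 had lower fitted levels than with wild-type PRPF6, with log2 differences of −1.17, −0.82 and −0.81, and Zfpm2 and Tle4 had higher fitted levels, with 0.83 and 0.40. None of the 10 genes passed the test (edgeR quasi-likelihood test with Benjamini-Hochberg adjustment over 14451 genes, adjusted p = 1.00 for each). Across all genes 0 passed as well, a share of 0%, and 489 genes, 3.38%, stood at an unadjusted p under 0.05. limma-voom also passed 0 genes, with 551 (3.81%) at an unadjusted p under 0.05, and DESeq2 passed 6 of the 5756 genes to which it gave an adjusted p (0.104%), with 642 (4.49%) at an unadjusted p under 0.05. No deep-layer member was among those 6, and DESeq2 gave no adjusted p to 4 members, Crym, Zfpm2, Nr4a2 and Tshz3. All 10 members passed the filter on low counts. Of these, 7 had lower and 3 had higher fitted levels with mutant PRPF6, where 50.2% of all tested genes were lower and 49.8% higher. Their median log2 difference was −0.23, against −0.0013 over all tested genes. At an unadjusted p under 0.05 stood 2 members, Bcl11b and Tbr1, both lower, against 1.2% of all tested genes in that direction, and 0 members were higher at that p, against 2.18%. In bulk libraries, fewer deep-layer neurons and less RNA per neuron cannot be told apart.

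**Figure D1:**
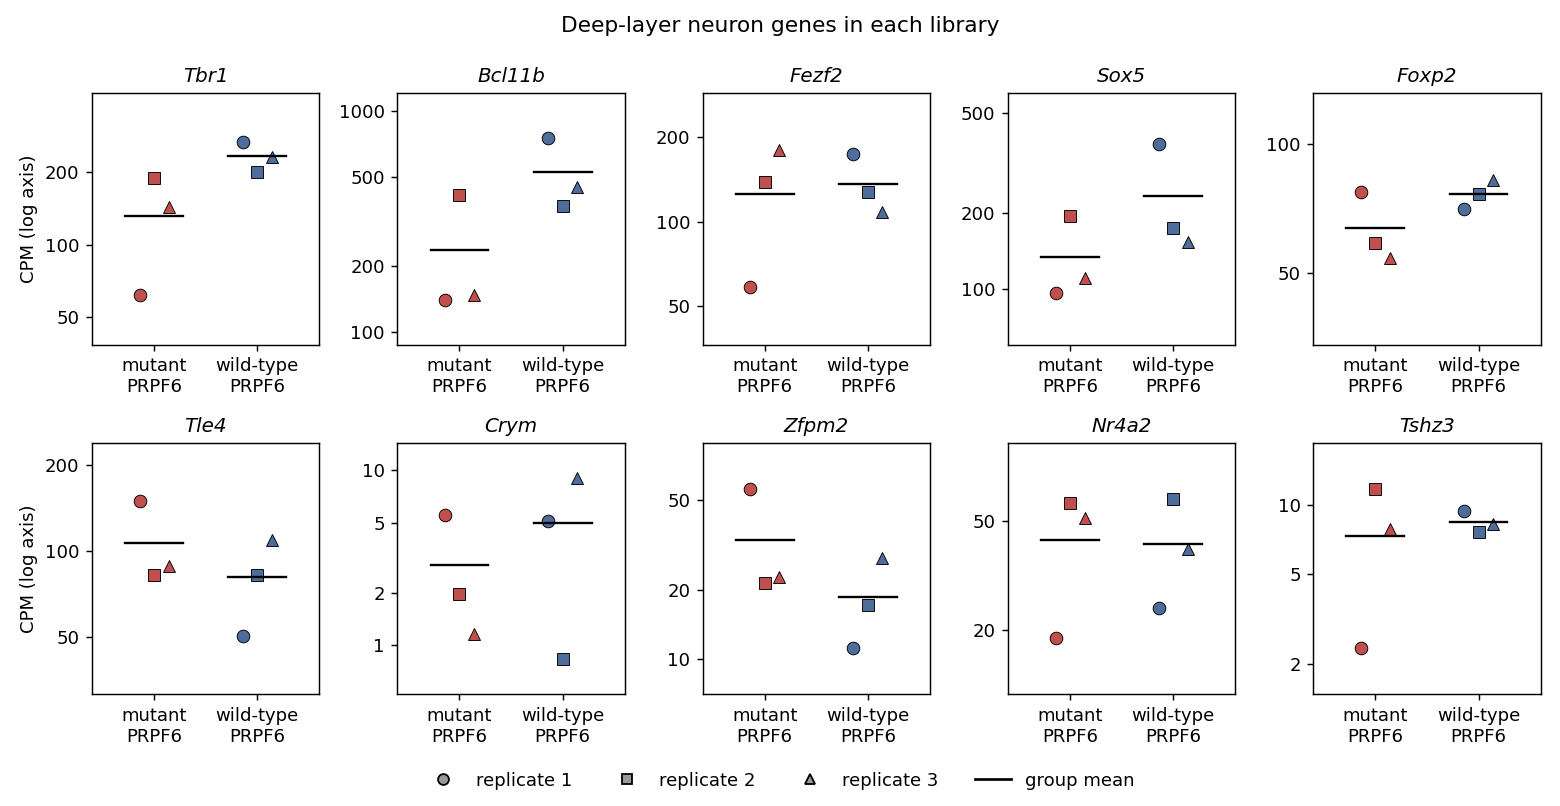
CPM (log axis, its range set for each gene) of the 10 deep-layer genes in each library, with mutant PRPF6 on the left of each panel and wild-type PRPF6 on the right. Marker shapes give the replicate number and bars the group means. Tbr1 is the 1 gene whose mutant libraries all lie below its wild-type libraries, and replicate 1 of the mutant group is the lowest library for 6 genes.

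Tbr1 (ENSMUSG00000035033.15, chromosome 2, 61802930 to 61814114, plus strand, GRCm38) encodes the T-box factor of corticothalamic neurons. It stood at 61.7, 189 and 143 CPM in mutant replicates 1, 2 and 3, against 265, 200 and 231 CPM in the wild-type replicates 1 to 3. All mutant libraries lay below all wild-type libraries, though mutant replicate 2 came close to wild-type replicate 2. Among all tested genes 4.54% were separated in that way, and Tbr1 was the 1 such member of 10. No member had all mutant libraries above, as 4.6% of tested genes did. Tbr1 averaged 131 ± 64.3 CPM with mutant and 232 ± 32.5 CPM with wild-type PRPF6 (SD, n = 3 each). The log2 difference was −0.82 ± 0.36 (SE; edgeR unadjusted p = 0.0499, adjusted p = 1.00). Without mutant replicate 1 the difference was −0.49 ± 0.20, and without mutant replicate 2 it was −1.18 ± 0.36 (SE).

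Bcl11b (ENSMUSG00000048251.15, chromosome 12, 107910403 to 108003602, minus strand), also known as Ctip2, encodes a zinc-finger factor needed for corticospinal axons. Its values were 140, 416 and 147 CPM in mutant replicates 1, 2 and 3, and 752, 373 and 455 CPM in the wild-type replicates 1 to 3. The groups overlapped because mutant replicate 2 lay above wild-type replicate 2, while the other mutant libraries were at less than any wild-type library. The means were 234 ± 157 CPM with mutant and 527 ± 199.8 CPM with wild-type PRPF6 (SD, n = 3 each). The log2 difference of −1.17 ± 0.45 (SE) had the largest size of the 10 (edgeR unadjusted p = 0.0324, adjusted p = 1.00). Leaving out mutant replicate 2 gave −1.87 ± 0.32 and leaving out wild-type replicate 1 gave −0.82 ± 0.47 (SE), and in neither refit was the adjusted edgeR p, 0.544 and 0.999, under 0.05.

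Sox5 (ENSMUSG00000041540.16, chromosome 6, 143828425 to 144781977, minus strand), a SoxD factor that times the production of deep-layer neuron types, was at 96.3, 196 and 111 CPM in mutant replicates 1, 2 and 3. In wild-type replicates 1, 2 and 3 it was at 374, 175 and 154 CPM. A single library, wild-type replicate 1, stood well above the rest, and mutant replicate 2 lay above the other wild-type libraries. The log2 difference was −0.81 ± 0.39 (SE; edgeR unadjusted p = 0.0721), and −0.30 ± 0.31 (SE) without wild-type replicate 1. An antisense gene, Sox5os1, shares 1330 exonic bases with Sox5 in GENCODE M21, and the strand setting of the counts is not given in the sources used here.

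Fezf2 (ENSMUSG00000021743.6, chromosome 14, 12342094 to 12348189, minus strand), the zinc-finger selector gene of subcerebral projection neurons, was at 58.5, 139 and 179.6 CPM in mutant replicates 1, 2 and 3. In wild-type replicates 1, 2 and 3 it was at 174, 128 and 108 CPM. The highest and the lowest value both belonged to mutant libraries. The means of 126 ± 61.7 CPM with mutant and 137 ± 33.8 CPM with wild-type PRPF6 (SD, n = 3 each) gave a log2 difference of −0.12 ± 0.38 (SE), whose sign turned to 0.22 ± 0.24 without mutant replicate 1.

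The windows around the annotated start sites of these 4 factors are shown because 3 of them, Tbr1, Bcl11b and Sox5, had the lower fitted levels and Fezf2 is the factor they are known to act with. RefSeq (GRCm38.p6) gave such a window of 250 bases before and 50 bases after the start for 7 of the 10 members: Tbr1, Bcl11b, Fezf2, Sox5, Tle4, Nr4a2 and Tshz3. Capitals mark matches on either strand to 4 short motifs, which are TAATTA (homeodomain core), CAGNTG (E-box of neural bHLH factors), ACAATG (SOX core) and GGTGTGA (T-box core). No match overlapped another. The Sox5 window lies at a start site inside the gene, far from the 5′ end of the span given above, and the Tbr1 and Fezf2 windows also lie within their spans. Sequences run 5′ to 3′ on the strand of the gene.
Tbr1 (chr2:61804203-61804502, plus strand): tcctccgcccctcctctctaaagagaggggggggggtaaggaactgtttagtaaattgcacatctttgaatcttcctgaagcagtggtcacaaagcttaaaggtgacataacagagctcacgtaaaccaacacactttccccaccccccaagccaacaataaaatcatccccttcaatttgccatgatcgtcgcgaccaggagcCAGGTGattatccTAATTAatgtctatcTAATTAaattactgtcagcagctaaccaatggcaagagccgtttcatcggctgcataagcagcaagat
Bcl11b (chr12:108003365-108003664, minus strand): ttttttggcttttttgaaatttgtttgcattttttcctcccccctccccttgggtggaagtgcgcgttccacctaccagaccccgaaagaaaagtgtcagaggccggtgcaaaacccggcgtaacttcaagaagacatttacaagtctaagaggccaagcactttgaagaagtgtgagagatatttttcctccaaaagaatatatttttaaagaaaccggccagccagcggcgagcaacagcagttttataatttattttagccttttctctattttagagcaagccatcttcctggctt
Sox5 (chr6:143947057-143947356, minus strand): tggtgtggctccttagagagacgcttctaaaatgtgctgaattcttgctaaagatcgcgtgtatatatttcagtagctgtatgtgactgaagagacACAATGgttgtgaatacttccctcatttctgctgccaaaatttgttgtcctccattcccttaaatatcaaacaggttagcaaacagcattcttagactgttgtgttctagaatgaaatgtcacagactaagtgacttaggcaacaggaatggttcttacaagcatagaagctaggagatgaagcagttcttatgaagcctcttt
Fezf2 (chr14:12345816-12346115, minus strand): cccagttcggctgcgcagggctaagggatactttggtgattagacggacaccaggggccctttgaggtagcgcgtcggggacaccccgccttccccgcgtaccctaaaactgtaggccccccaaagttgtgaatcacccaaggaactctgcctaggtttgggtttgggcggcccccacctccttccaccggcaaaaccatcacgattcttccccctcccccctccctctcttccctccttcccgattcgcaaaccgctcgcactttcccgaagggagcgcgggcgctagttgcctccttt

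The Tbr1 window held 2 matches to TAATTA, which began 33 and 18 bases before the start site, and 1 match to CAGNTG, which began 46 bases before it. Among 32851 such windows of the mouse genome, 5.29% held TAATTA and 51.4% held CAGNTG. The Sox5 window held a single ACAATG, found in 12.6% of windows, which began 154 bases before that internal start site. The Bcl11b and Fezf2 windows held none of the 4 motifs, and GGTGTGA, present in 3.98% of windows, was in none of the 4. A match is a run of letters and not a measured binding site, and counts per gene do not show which start site was used.

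Tle4 (ENSMUSG00000024642.17, chromosome 19, 14448150 to 14598051, minus strand), a Groucho-family co-repressor of corticothalamic neurons, was at 149, 81.9 and 88.2 CPM in mutant replicates 1, 2 and 3. In wild-type replicates 1, 2 and 3 it was at 50.2, 82.4 and 109 CPM. The log2 difference was 0.40 ± 0.33 (SE), and 0.078 ± 0.31 without mutant replicate 1. Its count was not whole in 4 libraries, so part of its reads was shared with other genes.

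Zfpm2 (ENSMUSG00000022306.9, chromosome 15, 40655035 to 41104592, plus strand), also called Fog2, encodes a GATA cofactor of the corticothalamic programme. It was at 55.6, 21.5 and 22.8 CPM in mutant replicates 1, 2 and 3, and at 11.2, 17.3 and 27.7 CPM in the wild-type replicates 1 to 3. Mutant replicate 1 was the highest library for both Tle4 and Zfpm2, and wild-type replicate 1 the lowest. The Zfpm2 log2 difference of 0.83 ± 0.48 (SE; edgeR unadjusted p = 0.119) was 0.24 ± 0.42 without mutant replicate 1, whereas leaving out wild-type replicate 3 gave 1.23 ± 0.52.

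Foxp2 (ENSMUSG00000029563.16, chromosome 6, 14901349 to 15441977, plus strand), a forkhead factor of corticothalamic neurons, had the smallest standard error of the 10. It was at 77.5, 58.8 and 54.3 CPM in mutant replicates 1, 2 and 3, and at 70.7, 76.7 and 82.4 CPM in the wild-type replicates 1 to 3. Mutant replicates 2 and 3 lay below every wild-type library, and mutant replicate 1 lay among them. The log2 difference was −0.27 ± 0.20 (SE), −0.44 ± 0.19 without mutant replicate 1 and −0.17 ± 0.21 without mutant replicate 3.

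Nr4a2 (ENSMUSG00000026826.13, chromosome 2, 57106830 to 57124003, minus strand), an orphan nuclear receptor also known as Nurr1, was at 18.7, 58.1 and 50.9 CPM in mutant replicates 1, 2 and 3. In wild-type replicates 1, 2 and 3 it was at 24.1, 60.0 and 39.3 CPM. In each group replicate 1 was lowest, and the log2 difference was 0.049 ± 0.46 (SE). Tshz3 (ENSMUSG00000021217.7, chromosome 7, 36698118 to 36773553, plus strand), a teashirt zinc-finger gene, was at 2.36, 11.8 and 7.87 CPM in mutant replicates 1, 2 and 3. In wild-type replicates 1, 2 and 3 it was at 9.39, 7.65 and 8.24 CPM. Its wild-type libraries lay close together, while its mutant libraries held both the lowest and the highest value (log2 difference −0.20 ± 0.64, SE).

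Crym (ENSMUSG00000030905.5, chromosome 7, 120186380 to 120202111, minus strand), which encodes a thyroid hormone-binding crystallin of subcerebral neurons, had the lowest mean level of the 10 in each group. It was at 5.54, 1.97 and 1.16 CPM in mutant replicates 1, 2 and 3, and at 5.16, 0.837 and 9.01 CPM in the wild-type replicates 1 to 3. The spread within each group exceeded the log2 difference of −0.79 ± 1.05 (SE), and leaving out mutant replicate 1 gave −1.67 ± 1.17, whereas leaving out wild-type replicate 3 gave −0.044 ± 1.28.

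**Figure D2:**
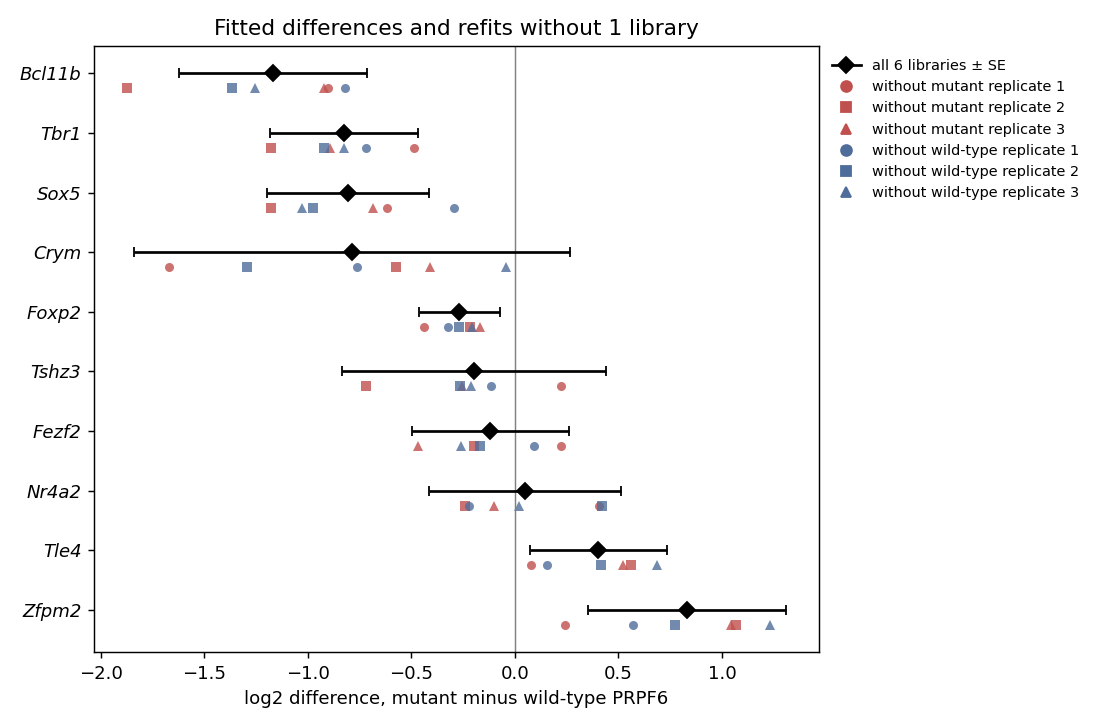
Log2 difference of each gene, mutant minus wild-type PRPF6, with its SE over all 6 libraries (diamonds), and the value after leaving out each library in turn (small markers, coloured by the group of the library left out). Bcl11b, Tbr1, Sox5, Crym and Foxp2 stay below 0 and Tle4 and Zfpm2 above 0 in every refit shown, while Fezf2, Nr4a2 and Tshz3 cross 0.

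Per kilobase of exon in GENCODE M21, the order of levels differed between the groups. With mutant PRPF6 it was Fezf2 (41.3 ± 20.2 CPM per kilobase), Bcl11b (28.9 ± 19.4), Tbr1 (23.9 ± 11.7) and Tle4 (18.7 ± 6.52), and with wild-type PRPF6 it was Bcl11b (64.9 ± 24.6 CPM per kilobase), Fezf2 (44.8 ± 11.1), Tbr1 (42.3 ± 5.93) and Sox5 (16.3 ± 8.45; SD, n = 3 each). In both groups neighbours among Bcl11b, Fezf2 and Tbr1 differed by less than the larger of their SDs. Nr4a2, Foxp2, Zfpm2, Tshz3 and Crym averaged between 0.853 and 10.5 CPM per kilobase with mutant and between 1.48 and 10.1 with wild-type PRPF6. Annotated exon length is an approximation, because the isoforms present are not known from these counts.

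The members did not vary as a block. Mutant replicate 1 was the lowest of the 6 libraries for 6 members (Tbr1, Bcl11b, Fezf2, Sox5, Nr4a2 and Tshz3), against 24.1% of all tested genes, and the highest for Tle4 and Zfpm2, against 23.3%. Around the mean of all libraries, Tbr1 was −1.42 and Zfpm2 1.28 log2 units in that library. In wild-type replicate 1 the signs of these genes other than Nr4a2 were turned, with Bcl11b at 1.23 and Zfpm2 at −1.04. As a description over 6 libraries, which share their scaling and include that extreme library, Pearson's r was 0.92 between Bcl11b and Sox5, 0.97 between Tle4 and Zfpm2 and −0.86 between Tbr1 and Zfpm2. Without mutant replicate 1 these values were 0.89, 0.97 and −0.51. Of the 45 pairs, 24 had a positive and 21 a negative r, and 32 kept their sign over the 5 libraries without mutant replicate 1.

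**Figure D3:**
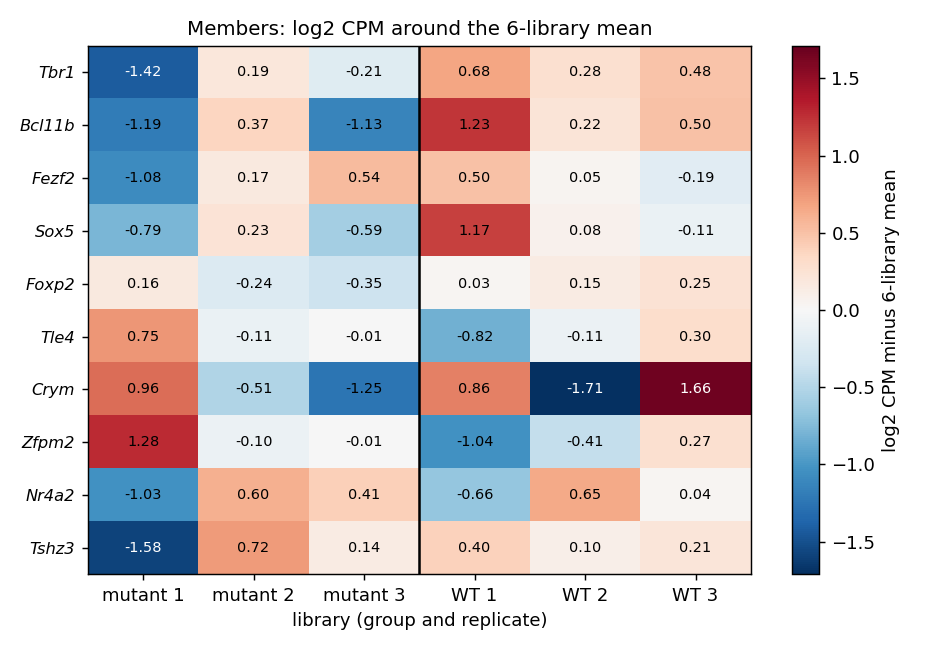
Log2 CPM of each deep-layer gene minus its mean over the 6 libraries (colour and printed value), with the 3 mutant libraries left of the line and the 3 wild-type libraries right of it. Mutant replicate 1 and wild-type replicate 1 have opposite signs for Tbr1, Bcl11b, Fezf2, Sox5, Tle4, Zfpm2 and Tshz3, with the same sign for Foxp2, Crym and Nr4a2.

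Among 10100 other genes whose mean log2 CPM reached 3, those whose log2 CPM over the 6 libraries was most like that of Tbr1 were Caap1, Tiam1 and Mterfd2 (Pearson's r 0.997, 0.995 and 0.995). For Bcl11b they were Chgb, Cnst and Nav3 (0.995, 0.994 and 0.993), and for Fezf2 they were Tmem194b, Cdc37l1 and Cyb561d1 (0.991, 0.990 and 0.989). Chgb, a secretory granule protein, was at 15.6, 40.5 and 14.3 CPM in mutant replicates 1, 2 and 3 and at 58.6, 33.6 and 40.0 CPM in the wild-type replicates 1 to 3, which places the libraries in nearly the same order as Bcl11b. With 6 libraries and so many genes, values this high are found by search and carry no test.

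Other genes of deep-layer projection neurons gave no common direction. Of 25 tested, 15 were lower and 10 higher with mutant PRPF6 (median log2 difference −0.11), and 0 passed the test. At an unadjusted p under 0.05 stood 1 lower gene, Pcp4, and 2 higher genes, Otx1 and Dkk3. Of all tested genes 1.2% stood there as lower and 2.18% as higher. Pcp4, a calmodulin-binding protein, was at 13.0, 24.5 and 18.2 CPM in mutant replicates 1, 2 and 3 and at 46.7, 22.4 and 36.6 CPM in the wild-type replicates 1 to 3. Otx1, a homeodomain factor that is also made by progenitors, was at 169.8, 91.0 and 124 CPM in mutant replicates 1, 2 and 3 and at 92.2, 79.5 and 60.4 CPM in the wild-type replicates 1 to 3, an overlap by a narrow margin. Dkk3, a secreted Dickkopf-family protein, had 159 CPM in mutant replicate 1 and 26.6 to 44.0 CPM in all other libraries. All mutant libraries lay below all wild-type libraries for 3 of the 25, Ldb2, Syt6 and Hs3st4, named after their values were seen. Among all tested genes 4.54% were separated in that way. The opposite separation was found for 0 of the 25, against 4.6%. Hs3st4 was near the floor, at 0.620, 0.744 and 0 CPM in mutant replicates 1, 2 and 3. Syt6, a synaptotagmin of corticothalamic neurons, had a single read, 0.017 CPM, in mutant replicate 1, with 12.5 and 2.87 CPM in mutant replicates 2 and 3 and 16.4 to 23.9 CPM with wild-type PRPF6.

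Of 7 tested subplate genes 3 were lower and 4 higher (median log2 difference 0.072), and Nxph4, a secreted neurexin ligand, was at 26.6 ± 13.4 CPM with mutant and 38.8 ± 5.75 CPM with wild-type PRPF6 (SD, n = 3 each). Of 15 upper-layer genes, 11 were lower and 4 higher (median −0.39). Of 16 newborn and pan-neuronal genes, 15 were lower and 1 was higher (median −0.61), a median further from 0 than that of the deep-layer members. Of all tested genes 50.2% were lower. At an edgeR unadjusted p under 0.05 stood 4 of the 16, all lower, against 1.2% of all tested genes in that direction. For 2 of the 16, Snap25 and Sox11, all mutant libraries lay below all wild-type libraries, against 4.54%. Of the upper-layer genes 0 stood at that p, with 2 separated below and 1 above. No gene of these 3 lists passed the test, and whether the lists differ from one another was not tested.

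Markers of several other cell types differed between libraries. In mutant replicate 1 the median radial glia level was 0.58 log2 units above the 6-library mean, the highest of the 6 libraries, while the median of that library over the deep-layer members was −0.91. Over all 15 radial glia genes, stem cell markers of the cortex, 14 were higher with mutant PRPF6, where 49.8% of all tested genes were higher. Their summed level was 3552 to 6037 CPM with mutant and 2411 to 3592 CPM with wild-type PRPF6. Radial glia genes higher at an edgeR unadjusted p under 0.05 numbered 7 of 15, against 2.18% of all tested genes. No radial glia gene passed the test. For Sox2, Sox9, Notch1 and Ednrb, 4 of the 15, the lowest mutant library exceeded the highest wild-type library, against 4.6% of all tested genes. Mutant replicate 1 was the highest library for Sox9 and Ednrb, and not for Sox2 and Notch1. Fabp7, a radial glia lipid-binding protein, was at 1536 CPM in mutant replicate 1 and at 343 to 578 CPM elsewhere. Neurod6 was at 57.5 CPM in mutant replicate 1. Interneuron and ventral forebrain markers (6 of 11 higher) summed to 437 to 1109 CPM with mutant and 244 to 1096 CPM with wild-type PRPF6. Their sum was highest in mutant replicate 1, closely followed by wild-type replicate 3, and lowest in wild-type replicate 1. By median, wild-type replicate 3 was highest, 1.24 log2 units above the 6-library mean, against 1.02 in mutant replicate 1. Npy was at 0 in mutant replicate 3. Red blood cell markers (12 of 12 lower) summed to 81.9 to 1633 CPM with mutant and 992 to 17152 CPM with wild-type PRPF6, with Hbb-bs at 0 in mutant replicate 3. Hbb-bt and Hbb-b2 had the same counts in every library, so that count of genes and the sums include the same values under both names. Meningeal fibroblast markers (10 of 10 lower) summed to 15.8 to 182 CPM with mutant and 132 to 1739 CPM with wild-type PRPF6, and microglia markers (8 of 9 higher) to 35.9 to 834 CPM and 119.7 to 305 CPM. Cajal-Retzius markers (4 of 7 higher) summed to 137 to 261 CPM with mutant and 119 to 251 CPM with wild-type PRPF6, and endothelial and mural markers (1 of 5 tested higher) to 5.88 to 82.3 CPM and 6.19 to 190.03 CPM, with Flt1 at 0 in mutant replicate 3 and Cdh5 at 0 in wild-type replicate 1. Intermediate progenitor genes (7 of 11 higher, median log2 difference 0.29) summed to 2256 to 3453 CPM with mutant and 1870 to 2737 CPM with wild-type PRPF6. Single libraries set several of these ranges. Wild-type replicate 3 stood apart with the highest sums of red blood cell (17152 CPM, against 992 and 2873 in the other wild-type libraries), meningeal fibroblast (1739 CPM, against 132 and 145) and endothelial and mural markers (190.03 CPM, against 8.36 and 6.19). Mutant replicate 2 had the highest microglia sum, 834 CPM, against 35.9 and 42.6 CPM in the other mutant libraries. The median log2 difference of the deep-layer members was −0.21 with wild-type replicate 3 left out, and −0.41 when mutant replicate 2 was left out. The part of these cells in the deep-layer values was not tested.

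**Figure D4:**
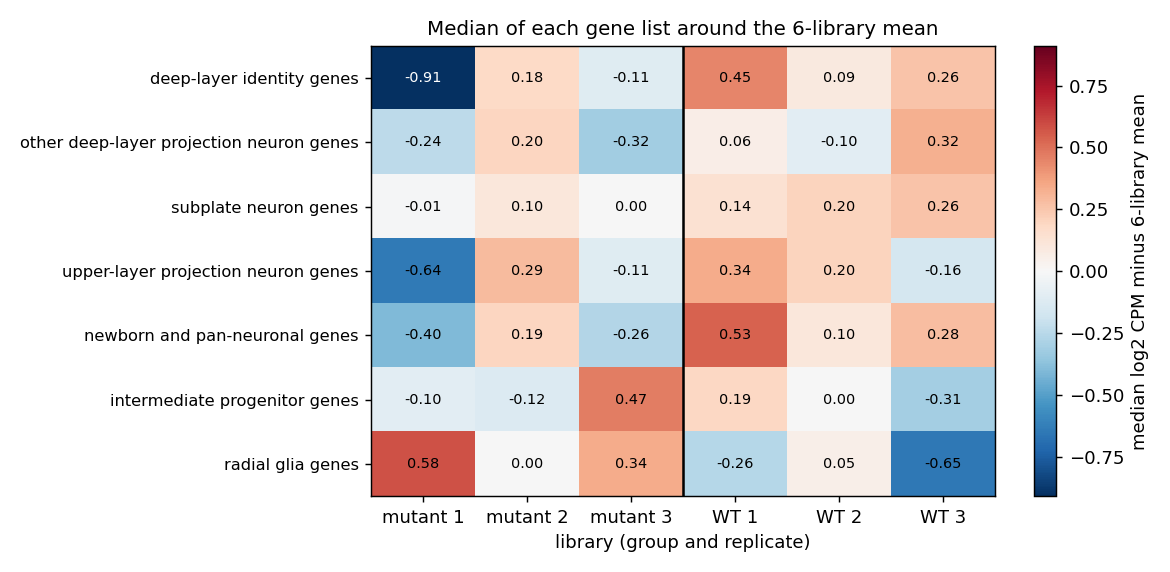
Median over the tested genes of each list of log2 CPM minus the 6-library mean (colour and printed value), by library, with mutant libraries left of the line and wild-type libraries right of it. Mutant replicate 1 has the lowest median of the deep-layer identity genes, −0.91, and the highest median of the radial glia genes, 0.58.

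Within a library, the ratio of Tbr1 to Neurod2, a transcription factor shared by all cortical excitatory neurons, does not depend on depth. It was 0.786, 0.610 and 0.514 in mutant replicates 1, 2 and 3 and 0.529, 0.672 and 0.792 in wild-type replicates 1, 2 and 3, so the groups covered nearly the same range. The ratio of Tbr1 to Neurod6 was 1.07, 0.272 and 0.235 in mutant replicates 1, 2 and 3 and 0.208, 0.272 and 0.397 in wild-type replicates 1, 2 and 3, with mutant replicate 1 far above the rest. For Bcl11b the ratio to Neurod2 was 1.79, 1.35 and 0.527 in mutant replicates 1, 2 and 3, and 1.50, 1.25 and 1.56 in wild-type replicates 1, 2 and 3, with mutant replicate 3 below the rest. For Fezf2 it was 0.745, 0.450 and 0.644 in mutant replicates 1, 2 and 3, and 0.347, 0.428 and 0.370 in wild-type replicates 1, 2 and 3, with all mutant libraries above all wild-type libraries. Of the 10 members 2, Fezf2 and Tshz3, were separated in that way, against 12.6% of all tested genes. Neurod2 itself was at 78.5, 309 and 279 CPM in mutant replicates 1, 2 and 3. In wild-type replicates 1, 2 and 3 it was at 501, 298 and 292 CPM (log2 difference −0.71 ± 0.46, SE). A ratio to Neurod2 therefore moves with both of its genes. Relative to Tbr1, 3 of the 9 other members, Fezf2, Nr4a2 and Tshz3, had all mutant libraries above all wild-type libraries and 0 had them below, against 30.3% and 0.436% of all tested genes, so the share of members above is near that of all genes. The ratio of Fezf2 to Tbr1 was 0.948, 0.737 and 1.25 in mutant replicates 1, 2 and 3, against 0.656, 0.638 and 0.467 in the wild-type replicates of those numbers. These ratios were chosen after the values were seen and were not tested.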

How the data were processed

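Messenger RNA of 6 libraries was amplified from picogram amounts of total RNA with a SMART-Seq low-input kit and sequenced as paired ends, per the labels' protocols. The authors deposited unscaled expected counts for each gene, made with RSEM on mm10 per the submitters' processing notes. Its version, annotation and strand setting are not given there. Groups and replicate numbers come from the sample titles. Expected counts were rounded, genes filtered with filterByExpr (14451 kept) and libraries scaled with TMM factors (0.972 to 1.02), so that 1 count was worth 0.0164 to 0.0228 CPM. Without molecular identifiers, reads are not independent molecules. The main test was the two-sided quasi-likelihood F-test of edgeR 4.0.16 with robust estimation and no term besides group, run in R 4.3.3 and adjusted by Benjamini-Hochberg over all tested genes at a threshold of 0.05. The steps were also run on simulated data, and the outcome of that run is not reported here. DESeq2 1.42.0, limma-voom (limma 3.58.1) and the settings of the closing section were alternatives. The members, lists and the rule for named genes (all members, Prpf6, up to 3 genes per other list by smallest unadjusted p, and the 3 genes most like Tbr1, Bcl11b and Fezf2) were chosen with earlier results of these data known. All 161 list entries were found by symbol, and some of them are not reported here by name. Log2 CPM used a prior count of 2. Coordinates and exon lengths are those of GENCODE M21 on GRCm38.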

Additional observations from a re-analysis of the deposited data

How the results depend on the processing

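Under every alternative run, 0 members passed, though DESeq2 gave an adjusted p to only 6 of the 10, and the count over all genes was 0 except with DESeq2, which called 6, all higher with mutant PRPF6; the cause was not tested. Libraries of a group varied with a common coefficient of 0.663, and the SE of a log2 difference had a median of 0.34. The median of the members ran from −0.41 (without mutant replicate 2) to −0.18 (without mutant replicate 1) when each library was left out, and members at an unadjusted p under 0.05 numbered 0 to 3 in those refits. Foxp2 and not Bcl11b stood there beside Tbr1 without mutant replicate 1, and Tbr1 and Sox5, not Bcl11b, did with DESeq2. Only 1 member, Bcl11b, did with a filter of at least 1 CPM in 3 libraries, without robust estimation and with the replicate block. In these 3 runs Tbr1 had an edgeR unadjusted p of 0.0506, 0.0536 and 0.0543.

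Signs turned for 5 members, and no value that turned had passed the test. When each library was left out, Fezf2 ran from −0.47 to 0.22, Nr4a2 from −0.24 to 0.42, Tshz3 from −0.72 to 0.22, Tle4 from 0.078 to 0.69 and Zfpm2 from 0.24 to 1.23; the turned values were 0.22 for Fezf2 and for Tshz3 without mutant replicate 1, 0.093 for Fezf2 and −0.22 for Nr4a2 without wild-type replicate 1, and −0.24 and −0.10 for Nr4a2 without mutant replicates 2 and 3. Nr4a2 was also −0.11 with limma-voom and −0.013 with the replicate block. Leaving out 2 libraries was added after the data were seen: without mutant replicate 1 and wild-type replicate 1, Fezf2 was 0.43, Tle4 −0.17, Zfpm2 −0.020 and Tshz3 0.31, and without mutant replicate 1 and wild-type replicate 3, Fezf2 was 0.083 and Tshz3 0.21. The cause was not tested.

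The labels do not say whether the replicate numbers pair the libraries. Deviations from the group means correlated across genes at 0.054, 0.061 and −0.26 for replicates 1, 2 and 3. Between libraries of unlike number the correlations ran from −0.25 to 0.26. With 3 libraries in each group, these values cannot decide whether the libraries were paired. With the replicate block, 0 genes and 0 members passed, and the members' median was −0.36.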

Other observations

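Moxd1, a subplate gene, was at 37.2, 1.57 and 1.80 CPM in mutant replicates 1 to 3 and at 0.021, 0.39 and 3.90 CPM in wild-type replicates 1 to 3, with mutant replicate 1 far above the rest.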
